A study of Mus musculus with 6 samples.

Results

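Respiratory complex I, the NADH:ubiquinone oxidoreductase, is the first enzyme of the mitochondrial electron transport chain. It takes electrons from NADH through a flavin and a row of iron-sulfur clusters to ubiquinone, and pumps protons across the inner membrane. Its matrix arm holds an N module, where NADH is oxidised, and a Q module, where ubiquinone is reduced, while the membrane arm pumps the protons. A small set of conserved catalytic subunits does the chemistry, many supernumerary subunits surround them, and separate assembly factors build the enzyme without being part of it. In liver, complex I reoxidises the NADH made by fatty acid oxidation and the tricarboxylic acid cycle.

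The complex I genes were all genes whose single symbol in the platform annotation starts with Nduf, which gave 39 of 12393 genes tested. The rule used symbols and no measured change, but it was chosen with earlier results of these data known. Each gene was read from 1 probe set, that with the highest mean over the 6 arrays. Of the 39 genes, 9 are named Ndufs or Ndufv, 25 are named Ndufa, Ndufb or Ndufc, and 5 are Ndufaf assembly factors. Names and roles do not coincide fully: Ndufs4, Ndufs5 and Ndufv3 are supernumerary subunits despite their names, and Ndufa4 is now counted as a subunit of cytochrome c oxidase. A further 8 probe sets carry an Nduf symbol together with another symbol and were left out.

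Liver RNA came from 3 TFEB-injected and 3 not-injected mice. All 6 were 1 month old, had a C57 background and were Ppara knockouts by label. Each array is 1 mouse. The vector was adenoviral; TFEB is a transcription factor known for switching on lysosomal and autophagy genes, and Ppara encodes a nuclear receptor for fatty acids. The labels name neither the promoter that drives TFEB nor the deleted part of Ppara. No mouse received an adenovirus without TFEB, so effects of the vector, the injection and TFEB cannot be told apart, and all groups lack Ppara by label. The comparison asks which transcripts differ in livers labelled as injected with the TFEB vector. In bulk liver RNA, more cells of a type and more RNA per cell cannot be told apart.

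Values were log2 levels after the authors' RMA normalization, which sets all arrays to one distribution, and the number of arrays limits their precision. Correlations over the tested genes were 0.995 to 0.998 among TFEB-injected arrays, 0.998 to 0.999 among not-injected arrays and 0.989 to 0.993 between groups. The Tfeb probe set gave 7.59 ± 0.12 in TFEB-injected and 7.55 ± 0.07 in not-injected livers (SD, n = 3 each), so no rise of Tfeb was seen with it, and the species of the vector's TFEB is not given in the labels. The Ppara probe set gave 9.08 ± 0.04 in TFEB-injected and 8.95 ± 0.07 in not-injected livers, and need not lie in the deleted part. Mean levels of the 10 hepatocyte markers were 11.55 to 14.95 in TFEB-injected and 12.05 to 15.02 in not-injected livers.

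Of the 39 complex I genes, 17 rose in the TFEB-injected livers and 0 fell at an adjusted p under 0.05 (limma, Benjamini-Hochberg over all genes). Over all genes tested, 9.99% rose and 7.92% fell, so the share of complex I genes that rose, 43.6%, was above the background. Most complex I probe sets are bright, and among genes with a mean of 10 or more, a level chosen after the values were seen, 17.8% rose. The changes were small: the median log2 change was 0.15, against -0.01 over all genes, and the range was -0.15 to 0.50. In 36 of the 39 genes the change was above 0, against 45.5% of all genes.

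In 29 complex I genes every TFEB-injected liver lay above every not-injected liver, and in 1, Ndufa8, every one lay below. The first pattern held for 18.2% of all genes and for 31.1% of those with a mean of 10 or more. It thus covered 12 complex I genes that did not pass the test, while 9 complex I genes had overlapping groups. The spread between mice was small in both groups, with a median SD over the 39 genes of 0.045 among TFEB-injected and 0.036 among not-injected livers. The plot of all members by mouse shows this separation.

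**Figure D1:**
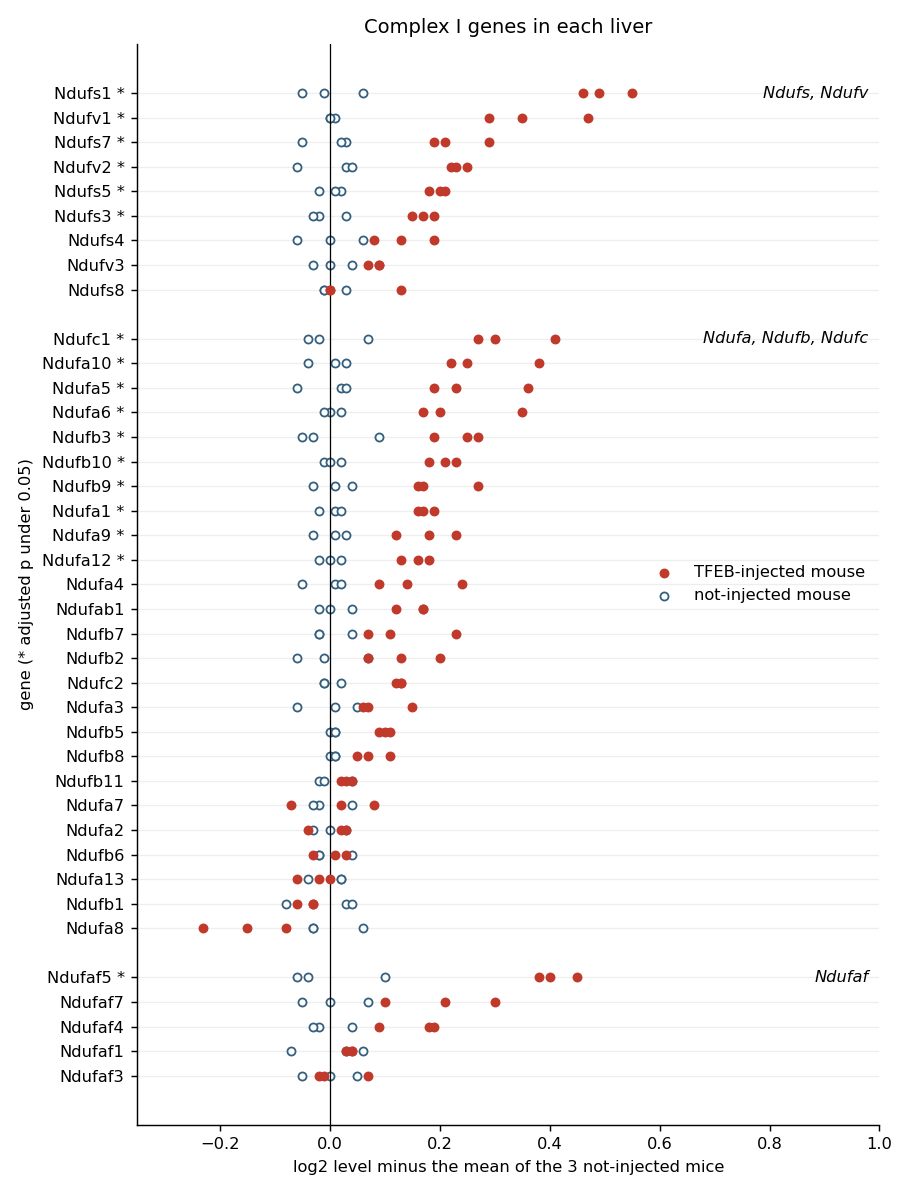
Log2 level of each of the 39 complex I genes in each of the 6 livers, minus the mean of the 3 not-injected livers (horizontal axis), with genes down the page by name class and asterisks at adjusted p under 0.05. Filled points are TFEB-injected mice and open circles not-injected mice. Every injected liver was higher in 29 genes and lower in Ndufa8. In Ndufb2, among the 29, a filled point and an open circle coincide after rounding.

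The genes named Ndufs or Ndufv stood highest by share: 6 of 9 rose (66.7%, against 9.99% of all genes) and 0 fell. Their median log2 change was 0.19. Among these, Ndufs1 encodes the largest subunit, which carries iron-sulfur clusters in the N module. It had log2 levels of 11.25, 11.28 and 11.34 in TFEB-injected livers, against 10.78, 10.85 and 10.74 in not-injected livers. All 3 injected livers lay above all 3 others, by a gap of 0.40. The log2 change was 0.50 ± 0.05 (SE; 95% interval 0.38 to 0.61), or 1.41-fold, the largest among the 39 genes (adjusted p = 8.26e-04).

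Ndufv1 encodes the subunit that binds NADH and the flavin. Its levels were 12.51, 12.57 and 12.69 in TFEB-injected livers, against 12.22, 12.23 and 12.22 in not-injected livers. The groups did not overlap, and the not-injected livers were nearly alike. Ndufv1 rose by a log2 change of 0.37 ± 0.06 (1.29-fold; adjusted p = 0.00442). Ndufv2, its iron-sulfur partner in the N module, had 12.62, 12.63 and 12.65 in TFEB-injected livers, against 12.43, 12.34 and 12.44 in not-injected livers. These groups did not overlap either, and the gene rose by 0.23 ± 0.05 (1.17-fold; adjusted p = 0.0148).

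In the Q module, Ndufs7, for the subunit with the last iron-sulfur cluster before ubiquinone, rose by 0.23 ± 0.05 (adjusted p = 0.0186), and Ndufs3 by 0.18 ± 0.04 (adjusted p = 0.0319). The supernumerary gene Ndufs5, whose protein sits on the intermembrane side of the membrane arm, rose by 0.19 ± 0.04 (adjusted p = 0.0199). Ndufs8, for another iron-sulfur subunit of the Q module, was the exception among the catalytic genes. It had 12.58, 12.58 and 12.71 in TFEB-injected livers, against 12.57, 12.61 and 12.57 in not-injected livers. The groups overlapped, and the log2 change was 0.04 ± 0.05, with a 95% interval of -0.08 to 0.16 that lies below the interval of Ndufs1. Of the 6 catalytic genes described here (Ndufs1, Ndufs3, Ndufs7, Ndufs8, Ndufv1 and Ndufv2), 5 rose, with a median of 0.23.

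Ndufs4, a late-joining N module subunit known as a frequent site of mutations in Leigh syndrome in humans, had 10.83, 10.88 and 10.94 in TFEB-injected livers, against 10.75, 10.69 and 10.81 in not-injected livers. The injected livers were higher by a narrow gap of 0.02. The change of 0.13 ± 0.05 did not pass (adjusted p = 0.134). Ndufv3 was at 0.08 ± 0.04 (adjusted p = 0.272).

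Leaving out arrays cut these calls. Ndufs1 and Ndufv1 passed without any 1 of the 6 arrays, with adjusted p of at most 0.00715 and 0.0242. Ndufv2 did not pass when replicate 2 of either group was left out (adjusted p up to 0.0630). Ndufs5 and Ndufs7 lost theirs without any 1 of the not-injected arrays or TFEB-injected replicate 2 (up to 0.0840 and 0.0656), and Ndufs3 without any 1 of the 6 arrays (up to 0.112). With TFEB-injected replicate 2 left out 2 of these genes passed in place of 6, and with not-injected replicates 1, 2 and 3 left out in turn 3, 2 and 3 did.

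**Figure D2:**
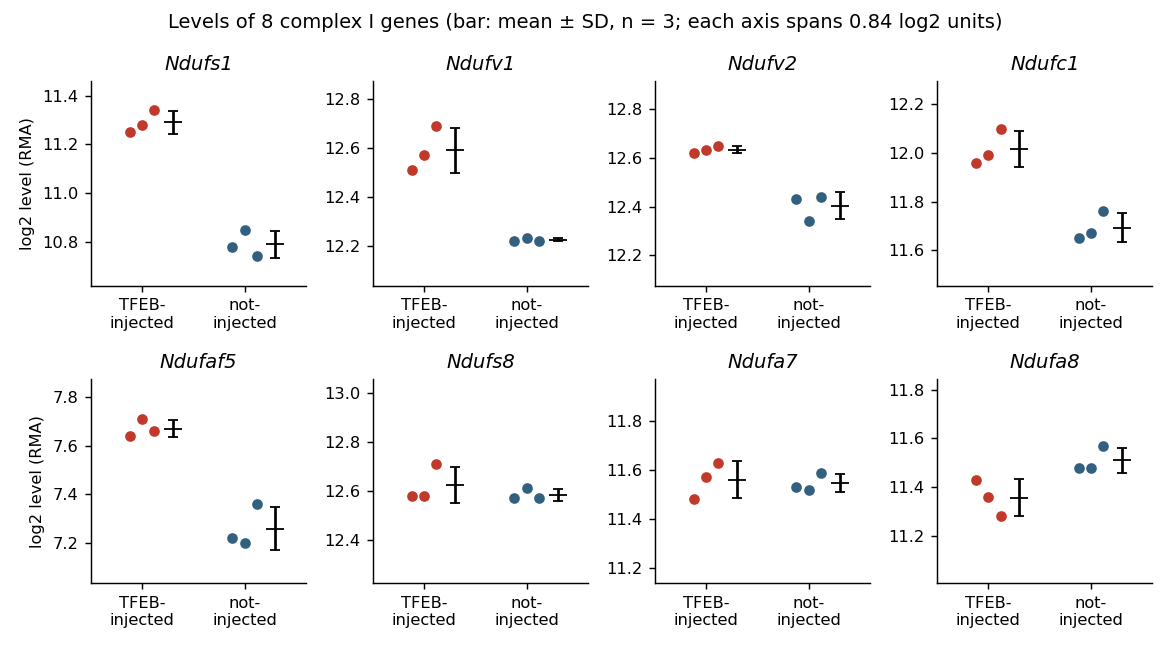
Log2 level (RMA) of 8 complex I genes in each TFEB-injected liver (left) and each not-injected liver (right), with mean ± SD (n = 3) beside the points; every vertical axis spans the same log2 distance but starts at its own level. Ndufs1, Ndufv1, Ndufv2, Ndufc1 and Ndufaf5 were higher in all 3 injected livers, Ndufs8 and Ndufa7 overlapped, and Ndufa8 was lower in all 3.

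Among the 25 genes named Ndufa, Ndufb or Ndufc, 10 rose (40.0%, against 9.99% of all genes) and 0 fell. Their median log2 change was 0.14, with a range of -0.15 to 0.32. Ndufc1, for a small membrane arm subunit, had 11.96, 11.99 and 12.10 in TFEB-injected livers, against 11.65, 11.67 and 11.76 in not-injected livers. The groups did not overlap, and the log2 change was 0.32 ± 0.06 (1.25-fold; adjusted p = 0.00854). Ndufa10, whose protein resembles nucleoside kinases, had 12.01, 12.04 and 12.17 in TFEB-injected livers, against 11.82, 11.75 and 11.80 in not-injected livers. Here too the groups were apart, and the gene rose by 0.28 ± 0.06 (adjusted p = 0.0145). Ndufb10, for a membrane arm subunit facing the intermembrane space, had 11.43, 11.48 and 11.46 in TFEB-injected livers, against 11.24, 11.25 and 11.27 in not-injected livers. It rose by 0.20 ± 0.04 (adjusted p = 0.0169), with both groups tight.

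The other 7 genes of this class that rose had log2 changes of 0.16 to 0.26. In the matrix arm these were Ndufa5 (0.26 ± 0.06), Ndufa6 (0.24 ± 0.06), Ndufa9 (0.17 ± 0.05) and Ndufa12 (0.16 ± 0.04). Ndufa6 encodes an LYR-motif subunit that anchors an acyl carrier protein to the enzyme. In the membrane arm they were Ndufb3 (0.23 ± 0.05), Ndufb9 (0.20 ± 0.05) and Ndufa1 (0.17 ± 0.04). Ndufb9 encodes the LYR-motif subunit of that arm. Ndufa1, which is X-linked in mouse, had 13.38, 13.39 and 13.41 in TFEB-injected livers, against 13.23, 13.20 and 13.24 in not-injected livers. Its groups did not overlap (adjusted p = 0.0310).

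All rises in this class except that of Ndufc1 were lost when at least 1 of the arrays was left out. Ndufc1 passed without any 1 array (adjusted p up to 0.0430), and Ndufa10 lost its call without not-injected replicate 2 (0.0603). Ndufb10 and Ndufb3 did not pass once replicate 2 of either group, or replicate 1 of the not-injected group, was removed (up to 0.0807 and 0.0924), Ndufa5 without any 1 not-injected array (up to 0.0848), and Ndufa6 without any 1 of these or TFEB-injected replicate 2 (up to 0.0970). Ndufa1 (up to 0.110), Ndufb9 (0.119) and Ndufa9 (0.147) were lost without any of 5 arrays, TFEB-injected replicate 3 being the exception for Ndufa1 and TFEB-injected replicate 1 for Ndufb9 and Ndufa9. Ndufa12 was lost without any 1 of the 6 (up to 0.151). In place of 10 genes, 3 passed with TFEB-injected replicate 2 removed, and 2, 1 and 4 with not-injected replicates 1, 2 and 3 removed in turn.

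The class also held all 3 complex I genes with a change below 0. Ndufa8, for a disulfide-bonded subunit on the intermembrane side, had 11.43, 11.36 and 11.28 in TFEB-injected livers, against 11.48, 11.48 and 11.57 in not-injected livers. Every injected liver was lower. The log2 change of -0.15 ± 0.06 did not pass (95% interval -0.29 to -0.02; adjusted p = 0.114). It passed under 2 alternatives, an intensity trend with a robust prior and array weights. In the second, TFEB-injected replicate 2 had by far the largest weight. Ndufs5 and Ndufb7, whose proteins carry the same kind of disulfide fold on that side, were at 0.19 ± 0.04 and 0.14 ± 0.06, the second not past the threshold (adjusted p = 0.136).

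Ndufb1 had 6.78, 6.78 and 6.75 in TFEB-injected livers, against 6.84, 6.73 and 6.85 in not-injected livers, and the groups overlapped (log2 change -0.04 ± 0.05). Ndufa13, also known as GRIM-19, was at -0.03 ± 0.04. Changes of 0.00 to 0.02 were seen for Ndufa2, Ndufb6, Ndufa7 and Ndufb11, and their 95% intervals all lay between -0.11 and 0.14. For these 6 genes a change as large as that of Ndufc1 is outside the interval of the probe set read. Ndufb1, the dimmest of the 39 genes, lay below the array medians of 6.97 to 6.98. Its interval describes that dim probe set and cannot settle whether the transcript changed.

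Between these ends were 8 genes at 0.07 to 0.16 that did not pass although every injected liver lay above every other: Ndufa4, Ndufab1, Ndufb7, Ndufb2, Ndufc2, Ndufa3, Ndufb5 and Ndufb8. In Ndufb2 the gap was 0.00 after rounding. Ndufa4 had 13.24, 13.29 and 13.39 in TFEB-injected livers, against 13.16, 13.10 and 13.17 in not-injected livers (log2 change 0.16 ± 0.05; adjusted p = 0.0791). Ndufab1, for the mitochondrial acyl carrier protein, had 12.51, 12.56 and 12.56 in TFEB-injected livers, against 12.39, 12.37 and 12.43 in not-injected livers. Its groups were apart, with a change of 0.15 ± 0.04 (adjusted p = 0.0566).

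By position in the enzyme, 5 of 9 N module genes, 4 of 5 Q module genes and 7 of 19 membrane arm genes rose. These are the genes measured, from lists of 10, 6 and 21. The shares that rose were 55.6%, 80.0% and 36.8%, against 9.99% of all genes and 17.8% of those with a mean of 10 or more. The median log2 changes were 0.16, 0.18 and 0.13. None of the modules held a gene that fell at the threshold, and the difference between modules was not tested.

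Of the 5 Ndufaf genes, 1 rose. Ndufaf5 encodes an enzyme that hydroxylates an arginine of the NDUFS7 subunit, as known from human cells. It had 7.64, 7.71 and 7.66 in TFEB-injected livers, against 7.22, 7.20 and 7.36 in not-injected livers. The groups were separated by 0.28, and the gene rose by 0.41 ± 0.06 (1.33-fold; adjusted p = 0.00317), a call that held without any 1 array (adjusted p up to 0.0207). Ndufaf7, for a methyltransferase that takes part in complex I assembly, had 8.06, 8.17 and 8.26 in TFEB-injected livers, against 8.03, 7.91 and 7.96 in not-injected livers. The injected livers were higher, but the change of 0.20 ± 0.07 did not pass (adjusted p = 0.0758).

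Ndufaf4 was at 0.15 ± 0.05 (adjusted p = 0.0807), with a narrow gap of 0.04 between groups. Ndufaf1, a scaffold of membrane arm assembly, and Ndufaf3, which works with NDUFAF4, were at 0.03 ± 0.05 and 0.01 ± 0.05 with overlapping groups. The count of 1 was 2 without TFEB-injected replicate 1 and 2 without TFEB-injected replicate 3, where 9.94% and 10.8% of all genes rose.

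Complex I assembly factors outside the Nduf names went both ways: of 11 measured from a list of 14, 3 rose and 1 fell. The share that rose was 27.3%, against 9.99% of all genes, and the median was 0.06. Foxred1, for an oxidoreductase needed for complex I assembly, had 8.37, 8.33 and 8.35 in TFEB-injected livers, against 7.83, 7.96 and 7.88 in not-injected livers. It rose by 0.46 ± 0.05 (1.38-fold; adjusted p = 0.00111). Tmem70, an assembly factor of the membrane arm and of ATP synthase, rose by 0.31 ± 0.04, and Aifm1, which takes part in the import of complex I proteins, by 0.29 ± 0.05. Dmac1, named for distal membrane arm assembly, fell by 0.22 ± 0.05 on the log2 scale (adjusted p = 0.0156), with 9.91, 9.90 and 9.83 in TFEB-injected livers, against 10.10, 10.09 and 10.12 in not-injected livers. The partners of Ndufaf1 in its assembly complex, Acad9 and Ecsit, were at -0.08 ± 0.05 and 0.09 ± 0.04, neither past the threshold.

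Among 13 genes for regulators of mitochondrial biogenesis, 2 rose and 0 fell, with a median of 0.00. The share that rose was 15.4%, against 9.99% of all genes. It was 17.8% among genes with a mean of 10 or more, but the 2 regulators that rose lay below that level in both groups. Ppargc1a, for the coactivator PGC-1alpha, had 8.93, 9.73 and 10.42 in TFEB-injected livers, against 7.43, 7.44 and 7.46 in not-injected livers (log2 change 2.25 ± 0.32; adjusted p = 0.00330). Esrra, for the nuclear receptor ERRalpha that PGC-1alpha coactivates, had 8.40, 8.48 and 8.62 in TFEB-injected livers, against 8.10, 8.15 and 8.11 in not-injected livers, and rose by 0.38 ± 0.06 (adjusted p = 0.00651). In both genes the groups were apart. Nrf1 was at -0.05 ± 0.08, Gabpa at -0.14 ± 0.04 (adjusted p = 0.0530) and Tfam at 0.14 ± 0.05 (adjusted p = 0.0891), and none of these 3 passed.

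The 3 injected livers were not alike. TFEB-injected replicate 3 was the highest of the 3 in 15 of the 17 genes that rose, and TFEB-injected replicate 1 the lowest in 16. The median shift of the 39 genes from the not-injected mean was 0.11, 0.17 and 0.19 in TFEB-injected replicates 1, 2 and 3, against 0.00, -0.02 and 0.03 in not-injected replicates 1, 2 and 3. All injected livers thus lay above all others by this median. Over all genes the corresponding shifts were -0.01, -0.02 and 0.00 in the injected livers.

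The promoters of some members carry letters bound by factors of mitochondrial and lysosomal genes, and a few stretches are shown to set the sequence beside the change. Windows of 300 bases, 250 before to 50 after the start of the gene, were available from RefSeq (GRCm38.p6) for 36 of the 39 genes, the others being Ndufa2, Ndufb9 and Ndufs1. Exact matches were sought on both strands. The E-box CACGTG, at the heart of the elements that TFEB binds, was found in 2 of 36 windows (5.56%), against 8.09% of all genes with a window. The longer form GTCACGTG, which contains the E-box, was in 1 (2.78%, against 2.55%). TGACCTT, the letters bound by ERR receptors, was in 2 (5.56%, against 5.38%), the NRF1 letters GCGCATGC were in 4 (11.1%, against 3.05%), and the ETS letters CCGGAAG, bound by GABPA, in 5 (13.9%, against 9.93%). A match is a description of the letters and not a bound site.

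The stretches below lie upstream of the start, 5′ to 3′ on the strand of the gene, with the matched letters in capitals and are given for the E-box, NRF1 and ERR letters. Each pair was picked to hold a gene that rose and a gene that did not pass. The E-box pair is Ndufv1, on the minus strand at chr19:4012874-4012969, and Ndufa7, on the plus strand at chr17:33824453-33824550 with the longer form. The NRF1 pair is Ndufa6, minus strand, chr15:82354322-82354419, and Ndufa8, minus strand, chr2:36049339-36049391, both with the match on the opposite strand. The ERR pair is Ndufs5, minus strand, chr4:123718363-123718436, and Ndufb2, plus strand, chr6:39592339-39592435, the second with the match on the opposite strand.
Ndufv1: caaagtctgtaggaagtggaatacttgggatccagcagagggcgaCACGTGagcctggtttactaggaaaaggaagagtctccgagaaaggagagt
Ndufa7: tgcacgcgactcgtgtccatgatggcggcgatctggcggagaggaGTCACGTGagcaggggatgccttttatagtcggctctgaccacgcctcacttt
Ndufa6: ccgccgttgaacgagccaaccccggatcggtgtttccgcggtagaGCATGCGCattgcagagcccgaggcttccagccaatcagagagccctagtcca
Ndufa8: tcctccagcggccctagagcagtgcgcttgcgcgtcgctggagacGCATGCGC
Ndufs5: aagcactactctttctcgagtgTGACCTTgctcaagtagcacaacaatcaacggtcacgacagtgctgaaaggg
Ndufb2: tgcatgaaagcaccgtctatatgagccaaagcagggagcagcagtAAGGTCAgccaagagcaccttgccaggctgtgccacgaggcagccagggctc

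The values of the 3 pairs describe the genes shown, and no difference within a pair was tested. With the E-box, Ndufv1 rose by 0.37 ± 0.06 while Ndufa7 was at 0.01 ± 0.05, with 11.48, 11.57 and 11.63 in TFEB-injected livers, against 11.53, 11.52 and 11.59 in not-injected livers. With the NRF1 letters, Ndufa6 rose by 0.24 ± 0.06 and Ndufa8 was at -0.15 ± 0.06. With the ERR letters, Ndufs5 rose by 0.19 ± 0.04 and Ndufb2 was at 0.13 ± 0.06. Of the 15 genes that rose and had a window, 1 held the E-box, 1 the ERR letters, 2 the NRF1 letters and 1 the ETS letters.

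Probe sets of one gene can read different parts of a transcript, and 20 of the 39 genes had more than 1. In 7 of these, probe sets of the gene differed in sign. Of the 8 genes with several probe sets that rose, Ndufa12 and Ndufb9 were among the 7. Ndufa12 had 12.77, 12.80 and 12.82 in TFEB-injected livers, against 12.62, 12.64 and 12.66 in not-injected livers. For Ndufa12, 2 further probe sets gave 0.15 and 0.17, and a dim one, with a mean level of 4.31, gave -0.01. The dim one is the only Ndufa12 probe set not of the _s_at or _x_at kind. Of the 39 genes, 10 were read from a probe set of these kinds. Ndufb9 had 13.20, 13.21 and 13.31 in TFEB-injected livers, against 13.01, 13.08 and 13.05 in not-injected livers; its other probe sets gave 0.17 and, at a mean level of 5.61, -0.02.

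The widest disagreement was in Ndufs4, where a dimmer probe set gave 7.25, 7.35 and 7.34 in TFEB-injected livers, against 7.57, 7.52 and 7.60 in not-injected livers. These groups did not overlap, in the direction opposite to the probe set with the highest mean. The change of this second probe set was -0.25 ± 0.05 (adjusted p = 0.0168 over all probe sets), and the remaining one gave 0.01. Ndufab1 gave 0.15, -0.04 and -0.21, and Ndufb7 gave 0.14, with 11.62, 11.66 and 11.78 in TFEB-injected livers, against 11.53, 11.53 and 11.59 in not-injected livers, and -0.03 from its other probe set. In Ndufa7 the other 4 probe sets gave -0.06 to -0.01, and in Ndufs8 all 6 lay between -0.02 and 0.04. The 3 probe sets of Ndufv1 gave 0.37, 0.39 and 0.43, and Ndufaf4 had a second probe set at 0.29 ± 0.06 that passed over all probe sets (adjusted p = 0.0157).

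**Figure D3:**
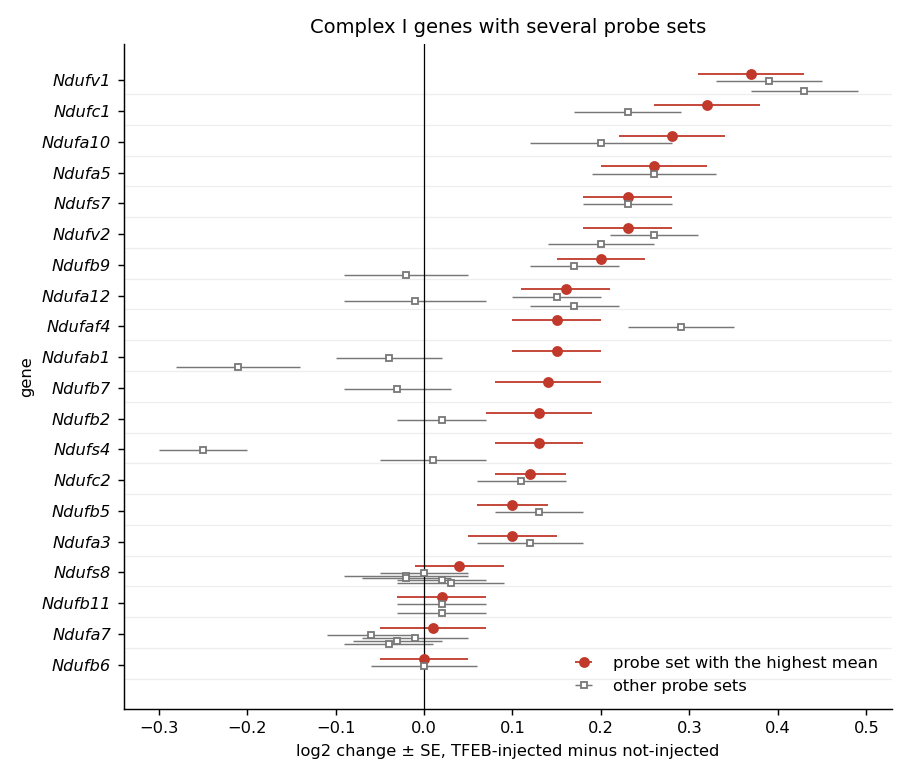
Log2 change ± SE, TFEB-injected minus not-injected (horizontal axis), for each probe set of the 20 complex I genes with more than 1. Filled circles are the probe sets with the highest mean and open squares the others; the squares of Ndufs4 and Ndufab1 reach -0.25 and -0.21, while those of Ndufv1 lie at 0.39 and 0.43.

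Genes of the other respiratory complexes also rose. Of 46 genes for complexes II to V, 22 rose and 0 fell (47.8%), with a median log2 change of 0.16 beside the 0.15 of complex I. Of 74 mitochondrial ribosomal protein genes, 20 rose (27.0%) and 1 fell, with a median of 0.08. Over all genes tested, 9.99% rose and 7.92% fell, and 17.8% rose among those with a mean of 10 or more. By complex, 3 of 4 genes of complex II, 5 of 9 of complex III, 8 of 16 of complex IV and 6 of 17 of complex V rose, with medians of 0.22, 0.20, 0.16 and 0.13. These lists were described by counts only, and no difference between them was tested.

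**Figure D4:**
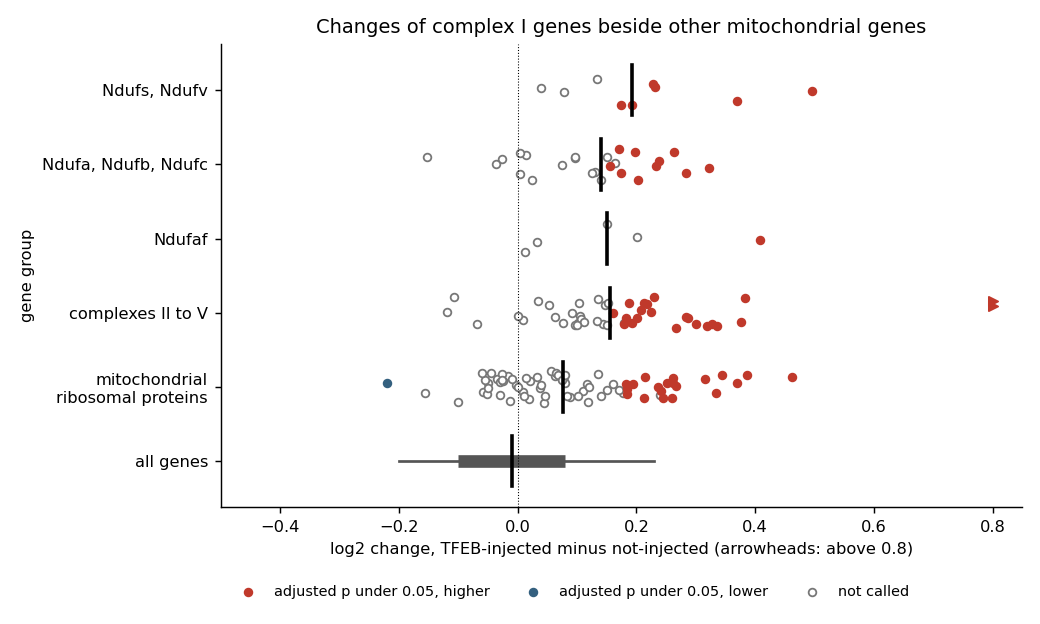
Log2 change of single genes, TFEB-injected minus not-injected (horizontal axis), for the 3 name classes of complex I, complexes II to V and mitochondrial ribosomal proteins; vertical bars are medians, filled points passed the test, arrowheads are genes beyond the axis, and the bottom row gives the median, the middle 50% (thick) and the 10th to 90th percentile (thin) of all genes. The medians of 0.19, 0.14 and 0.15 for the complex I classes lie beside 0.16 for complexes II to V and 0.08 for ribosomal proteins, and all genes sit at -0.01.

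Markers of other cell types also differed between the groups, where 9.99% of all genes rose and 7.92% fell. Of 13 macrophage and Kupffer cell markers measured from a list of 14, 10 rose and 0 fell, with a median of 0.49, and their summed level was 13.82 to 13.99 (log2) in TFEB-injected and 13.39 to 13.43 in not-injected livers. By mouse, TFEB-injected replicates 1, 2 and 3 had median marker shifts of 0.60, 0.52 and 0.33. Of 10 hepatocyte markers 0 rose and 1 fell, with a summed level of 17.64 to 17.68 in TFEB-injected and 17.70 in every not-injected liver. Of 8 skeletal muscle markers, from a tissue rich in complex I, 0 passed, and their summed level was 8.71 to 8.81 in TFEB-injected and 8.79 to 8.89 in not-injected livers. Of 5 adipocyte markers 0 rose and 1 fell, with a median of -0.14. Their sums were 11.12 to 11.24 in TFEB-injected and 12.08 to 12.15 in not-injected livers. The brightest adipocyte marker alone had means of 11.12 and 12.07 in these groups, so the sums mostly follow this marker. Among 6 endothelial markers 2 rose and 0 fell, the other 4 had changes below 0, and the median was -0.02 with a highest change of 1.42. Their sums were 11.18 to 11.31 in TFEB-injected and 10.58 to 10.65 in not-injected livers. Both erythroid markers measured summed to 9.18 to 9.42 in TFEB-injected and 10.09 to 10.12 in not-injected livers, and 1 fell. The brighter erythroid marker had means of 9.27 and 10.08 in these groups, so this sum mostly follows it. The dimmer one had means of 4.57 and 4.53. The part of these cell types in the complex I changes was not tested.

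The count of 17 depended on the arrays. Removing TFEB-injected replicate 2 left 6 genes, and removing not-injected replicates 1, 2 and 3 in turn left 6, 4 and 8, while the share of all genes that rose was 5.83% to 6.90% in these 4 fits.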

How the data were processed

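Levels were measured on Affymetrix arrays with biotin-labelled cRNA from total liver RNA of 6 mice, 3 per group, grouped and numbered by the labels. The deposited values are log2 levels that came from RMA with affy, as named in the submitters' processing notes (versions not given in the sources used here). RMA can compress small differences and hides shifts in total RNA. Of 22690 probe sets, 64 were controls, 20393 had 1 gene symbol, 691 several and 1606 none; 20380 were used, for 12393 genes. Changes, TFEB-injected minus not-injected, were fitted with limma 3.58.1 in R 4.3.3 (lmFit, eBayes) on 1 probe set per gene and adjusted by Benjamini-Hochberg at 0.05. The fit was tested on simulated data. The members and lists were chosen with earlier results of these data known. Values in every array are given for, in each name class, the 3 genes that passed with the smallest p and the largest change that did not, the largest change each way, the brightest and dimmest probe sets, Ndufa4, and genes with probe sets of opposite sign; the mean level of 10, Dmac1, Foxred1, Ppargc1a, Esrra and the second Ndufs4 probe set were added after their values were seen. Figures were drawn with matplotlib 3.10.9.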

Additional observations from a re-analysis of the deposited data

How the results depend on the processing

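The median log2 change of the complex I genes stayed between 0.12 and 0.17 under 9 alternatives and between 0.14 and 0.17 with an array left out. Of the 17 genes that rose, 4 (Ndufs1, Ndufv1, Ndufc1 and Ndufaf5) passed under all 15 alternatives. The count of complex I genes that passed was 6 with the replicate block, 29 with array weights (weights of 0.24 to 16.26, with 1 of the 29 lower), 4 at an adjusted p under 0.01, and 4 to 15 with an array left out. The share of all genes that rose moved with these counts: it was 7.45% with the replicate block, 21.9% with array weights and 5.20% at 0.01, against 9.99%. The weight of 16.26 was that of TFEB-injected replicate 2, and the other arrays had 0.24 to 1.19. With array weights the injected group thus mostly follows 1 mouse. Same-numbered mice of the groups had deviations from the group means that correlated at 0.01, -0.13 and -0.11. Mice with different numbers gave -0.04 to 0.16. The replicate numbers are not stated to pair the mice, and with 3 mice per group these values cannot decide it. For Ndufs and Ndufv genes the count that passed was 2 with the replicate block, 2 at 0.01 and 2 to 5 with an array left out. For Ndufa, Ndufb and Ndufc genes it was 3 with the replicate block, 18 with array weights, 1 at 0.01 and 1 to 8 with an array left out. For Ndufaf genes it was 2 with the mean of probe sets, 3 without genes below the median level, 2 with an intensity trend, 3 with array weights, 3 at 0.10 and 1 to 2 with an array left out. Of all genes, 9.18% rose with the mean of probe sets and 20.7% without genes below the median level. The share was 11.4% with an intensity trend and 13.0% at 0.10. With an intensity trend 1 complex I gene, Ndufa8, fell. Signs turned in genes near 0 and also in Ndufa12, Ndufab1 and Ndufs4, which were at 0.16, 0.15 and 0.13 with the main settings. Ndufa12 is among the 17 genes that rose. With median centring Ndufa2 was at -0.03, Ndufa7 at -0.02, Ndufaf3 at -0.02, Ndufb6 at -0.03 and Ndufb11 at -0.01; with cyclic loess Ndufaf3 was at -0.01. With the mean of probe sets Ndufa7 was at -0.02, Ndufab1 at -0.03 and Ndufs4 at -0.04. Without _s_at and _x_at probe sets Ndufa12 and Ndufa7 were at -0.01, Ndufab1 at -0.04 and Ndufs8 at 0.00, and 3 members had no probe set. With an array left out Ndufa2 and Ndufb6 ranged from -0.01 to 0.02, with 0.00 among the values, Ndufa7 from -0.02 to 0.05, Ndufaf1 from -0.01 to 0.06, Ndufaf3 from -0.02 to 0.04 and Ndufs8 from 0.00 to 0.06. The cause of these differences was not tested, apart from probe sets that differ and fewer arrays.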
